A study of Homo sapiens with 25 samples.

Results

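The receptors and adhesion molecules by which T cells move between blood, lymphoid organs and tissues were examined in Jurkat, an established line of leukaemic human T cells, grown with less histidine than usual. The 8 genes were the chemokine receptors CCR8, CCR7, CCR9 and CXCR4, the sphingosine-1-phosphate receptor S1PR1, the selectin ligand SELPLG and the integrin chains ITGA4 and ITGAL. They were taken by name from the 36755 genes of the deposited table. All 8 reached a normalized count of 10 in at least 2 libraries, as did 22994 genes in all, which were the genes tested. CCR9 (21 of 25 libraries) and CCR8 (23 of 25 libraries) were at or above 10 in the fewest libraries.

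The study compares such cells across levels of histidine, an essential amino acid. Day 6 is represented by 2 libraries at 12.5% and by 3 at each of 25%, 50% and 100%. For day 3 the table holds 3 libraries for each of 0%, 12.5%, 25% and 50% histidine, and replicates 1 and 3 only for 100%. All cells were of the same line with no other agent named in the labels, and the 100% libraries of each day served every comparison within that day. The labels do not tell whether replicates were separate cultures, and the spread that enters the p-values is that between libraries and may be technical. The RNA is that of a whole culture, so fewer cells with a transcript and less of it per cell cannot be told apart.

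T cells leave the blood in steps. Selectins catch glycans on PSGL-1 and similar proteins, chemokines presented on the vessel wall signal through G-protein-coupled receptors, and the signal switches integrins to a state that binds ICAM, VCAM or fibronectin. Exit from lymphoid tissue depends on S1PR1, which senses the higher sphingosine-1-phosphate of blood and lymph and which CD69 can pull off the cell surface.

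The 25 libraries had between 17445 and 19624 genes at 10 or more (median 18156). The normalized totals lay between 18.4 and 21.4 mega-counts, and the sequencing depth behind them is unknown. The 12 T-lineage markers, CD3 chains and T-cell receptor constant regions among them, summed to between 60741 and 110781 normalized counts and none was at 0 in any library, which fits the label. Of the 7 myeloid markers the sum never passed 347, and of the 5 B-cell markers it was at most 681.4, nearly all of it CD79A, while MS4A1 reached at most 3.01. Fibroblast markers summed to between 1733 and 12263, with COL1A1 at 539 or more in every library. Erythroid markers summed to between 191 and 5042. On day 3 they reached 4933 at 0%, 3832 at 12.5% and 5042 at 50%, where every library was at 3530 or more. On day 6 they reached 4949 at 25% and 3842 at 50%. In the other groups they were at most 528. Replicate 2 of 25% histidine on day 6 carried heart-muscle transcripts, with MYH7 at 18207 against at most 67.5 in any other library. Replicates 3 of 50% and of 100% on day 6 had the most genes at 10 or more, 19624 and 19484.

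A second set of day 6 libraries differed in other marker transcripts. The markers of cytotoxic lymphocytes (CD8A, CD8B, GZMA, GZMB, GZMH, PRF1, CCL5, NKG7, GNLY and KLRD1), a list drawn up after values had been seen, summed to 2833 and 2148 in replicates 1 and 2 of 12.5% histidine on day 6 and to 2611 in replicate 3 of 25%. The other 8 libraries of day 6 lay between 456 and 974, and the 14 libraries of day 3 between 440.5 and 1068. The same 3 libraries were above every other day 6 library for 8 of the 10 markers. CD8A, the co-receptor of killer T cells, had 630 and 484 normalized counts at 12.5%, and 159, 168 and 633 at 25%, against 129, 125 and 84.8 at 100%.

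The 8 genes lie on 6 chromosomes of GRCh38 and are protein-coding in GENCODE 29. On chromosome 2 are ITGA4, at chr2:181457202-181536187 on the plus strand, and CXCR4, at chr2:136114349-136118165 on the minus strand. CCR8 (chr3:39329706-39333511) and CCR9 (chr3:45886504-45903177) are on the plus strand of chromosome 3. S1PR1 is at chr1:101236865-101243713 and ITGAL at chr16:30472658-30523185, both on the plus strand, and CCR7 at chr17:40553769-40565472 and SELPLG at chr12:108622277-108633959 on the minus strand. Antisense genes AC116348.3 and AC116348.2 share 6.41% and 3.15% of the exon bases of ITGAL, and no other of these genes shares exon bases with a neighbour. Libraries were strand-specific per the labels, but whether strand was used in counting is not given in the sources used here.

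Promoters of 4 of the 8 genes were present in the RefSeq table of GRCh38.p14 (CXCR4, CCR9, S1PR1 and ITGA4). Those of ITGA4 and S1PR1 are shown because both transcripts fell with histidine, and 1 of the CXCR4 entries, a gene whose transcript moved little, for contrast. Each runs from 250 bases before to 50 bases after the start of transcription, in the direction of transcription, from chr2:181457136-181457435 (plus), chr1:101236769-101237068 (plus) and chr2:136118100-136118399 (minus). Capitals mark CACCC, the core bound by KLF factors, or its complement GGGTG.
ITGA4: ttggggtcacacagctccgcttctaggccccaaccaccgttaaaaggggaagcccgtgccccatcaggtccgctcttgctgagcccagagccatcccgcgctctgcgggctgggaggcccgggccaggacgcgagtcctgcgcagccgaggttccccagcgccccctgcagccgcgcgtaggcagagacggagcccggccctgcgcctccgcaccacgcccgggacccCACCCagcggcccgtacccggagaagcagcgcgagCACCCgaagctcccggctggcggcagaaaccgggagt
S1PR1: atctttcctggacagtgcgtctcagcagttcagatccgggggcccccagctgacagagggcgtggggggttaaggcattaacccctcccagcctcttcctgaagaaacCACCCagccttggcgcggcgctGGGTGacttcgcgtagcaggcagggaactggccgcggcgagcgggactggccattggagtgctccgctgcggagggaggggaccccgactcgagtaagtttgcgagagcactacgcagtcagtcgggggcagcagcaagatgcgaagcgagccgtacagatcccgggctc
CXCR4: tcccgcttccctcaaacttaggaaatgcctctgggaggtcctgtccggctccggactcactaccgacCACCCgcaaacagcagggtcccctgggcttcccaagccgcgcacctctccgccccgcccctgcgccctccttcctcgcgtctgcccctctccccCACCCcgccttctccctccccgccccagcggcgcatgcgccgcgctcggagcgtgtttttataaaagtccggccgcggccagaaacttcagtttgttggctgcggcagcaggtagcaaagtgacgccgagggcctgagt
Each of the 3 promoters held 2 matches, and CACCC on either strand is in 59.87% of the 35116 promoters of the table, so its presence is common. None of the 3 held GTAAACA (FOXO), CCGGAAG (ETS), TGTGGT (RUNX), CACGTG (the E-box of MYC) or TGATGNAAN (the ATF4 and CHOP element) on either strand, which occur in 3.423%, 10.26%, 13.07%, 7.256% and 3.611% of all promoters. These letters are a description of the windows and show no binding.

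Among the 8 genes, CCR8, ITGA4 and S1PR1 fell at 25% histidine and below on day 3, and all 3 were lower again at 12.5% on day 6. At 50% histidine none of the 8 passed the test on either day. Of the others, CXCR4 ranged over 1.57 times and SELPLG over 1.35 times across all 25 libraries, ITGAL was higher at 25% and 12.5% on day 6, and CCR7 and CCR9, which ranged over 3.85 times and 7.99 times with wide spread within groups, passed no test. Called means an adjusted p under 0.05 by limma over all 22994 genes.

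The B-cell marker sum, mostly CD79A, moved at the same step on day 3. It was 606 to 667 at 0%, 644 to 651 at 12.5% and 565 to 681.4 at 25%, against 228 to 261 at 50% and 219.9 to 273 at 100%. The B-cell sum moved less on day 6. It was 340 to 396 at 12.5% and 322 to 374 at 25%, against 291 to 306 at 50% and 274 to 303 at 100%. The T-lineage sum was 104324 to 110781 at 0% on day 3, against 64335 to 70262 at 100%. Their part in the changes of the 8 genes was not tested.

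**Figure D1:**
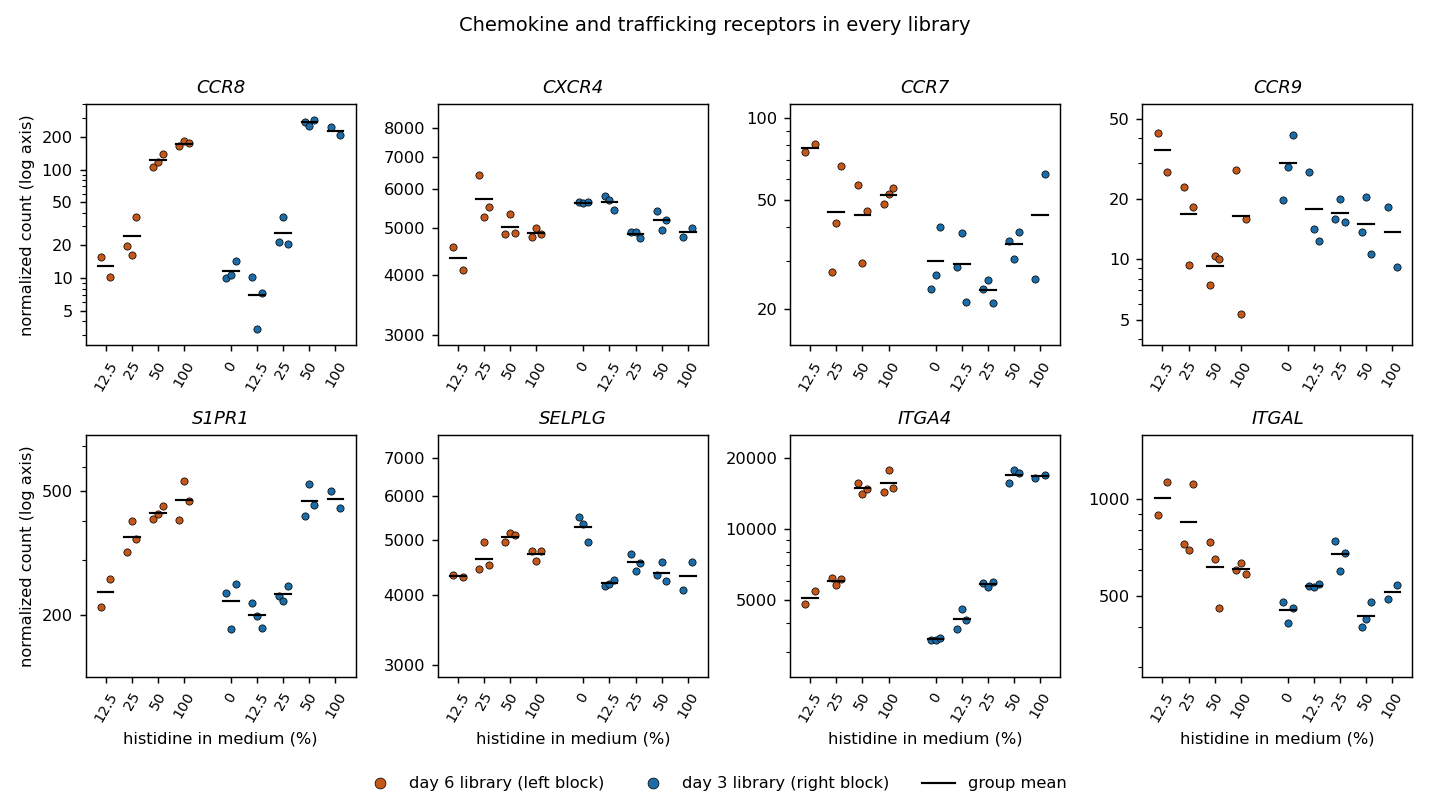
Normalized counts (log axis) of the 8 genes in each of the 25 libraries (points) and the mean of each group (bars), against histidine in the medium from low to high, with day 6 as the left block and day 3 as the right block of each panel. CCR8 and ITGA4 drop between 50% and 25% on both days, with no overlap of the libraries at 25% or less with those at 100%.

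The number of the 8 that passed is given beside the share of all genes. On day 3, 5 of the 8 were called at 0% against 100% (2 higher, 3 lower), where 31% of all tested genes were called, and 4 at 12.5% (1 higher, 3 lower), where 26.2% of all genes were. At 25%, 3 were lower, against 19.5% of all genes. At 50%, limma called 0 of the 8 and 0% of all genes. Of the 22994 genes, 1075 had an unadjusted p under 0.05, no more than tests without any effect would give. On day 6, 4 were called at 12.5% (1 higher, 3 lower) against a background of 21.9%, and 4 at 25% (2 higher, 2 lower) against 20.2%. At 50% on day 6 limma called 0 of the 8 and 1 gene of all, or 0.00435%. There 1098 genes had an unadjusted p under 0.05, again no more than tests without any effect would give. The median log2 difference of the 8 genes was -0.32 at 0% on day 3 and -0.15 at 12.5% on day 6, beside -0.02 and 0.00 for all genes tested.

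CCR8, the receptor of the chemokine CCL1 and a mark of skin-homing, Th2-type and regulatory T cells, fell most. It had 10.1, 10.6 and 14.5 normalized counts at 0% histidine on day 3, and 10.3, 3.41 and 7.29 at 12.5%. It had 21.5, 36.3 and 20.6 at 25% and 277, 251 and 288 at 50%, against 246 and 209.9 at 100%. On day 6 it had 15.6 and 10.1 at 12.5%, 19.6, 16.4 and 36.5 at 25%, and 106, 118 and 139 at 50%, against 163, 182 and 175 at 100%. All libraries at 25% or less lay below all libraries at 50% or 100%, on both days. At 12.5% on day 3 the mean was 32.6-fold lower than at 100% (7.00 ± 3.45, n = 3, against 228 ± 25.7, n = 2, SD), a log2 difference of -4.94 ± 0.37 (SE; adjusted p = 8.30e-11). Only 5 of the 22994 tested genes had a lower log2 difference in that comparison. At 0% and 25% the means were 19.4-fold and 8.73-fold lower (log2 -4.18 and -3.12), and on day 6 at 12.5% and 25% they were 13.5-fold and 7.18-fold lower (log2 -3.68 and -2.88).

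The step in CCR8 lay between 50% and 25%. At 25% against 50% it was 10.4-fold lower on day 3 (log2 -3.37 ± 0.33, adjusted p = 1.09e-08) and 5.02-fold lower on day 6 (log2 -2.36 ± 0.33, adjusted p = 5.23e-06). It fell again at 12.5% against 25% on day 3 (log2 -1.82 ± 0.33, adjusted p = 0.000676), a call lost when the library number modulo 8 was added to the fit (log2 -1.25, adjusted p = 0.21). The library number is the place of a library in the sample list and is not a batch given in the sample labels. That list runs group by group, so the added term is tied in part to the groups compared. At 0% against 12.5% the libraries overlapped on day 3 (log2 0.76 ± 0.33, adjusted p = 0.109), though without replicate 1 of 12.5% that difference passed (1.06, adjusted p = 0.0324). On day 6 the 12.5% libraries lay below those of 25% and the difference did not pass (-0.81 ± 0.37, adjusted p = 0.415). The 50% libraries of day 6 lay below those of 100%, but the difference of -0.52 ± 0.33 did not pass (adjusted p = 1) and its 95% interval ran from -1.19 to 0.15. On day 3 the 50% libraries lay above those of 100% (0.25 ± 0.37, adjusted p = 0.999).

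CCR4 is a second receptor of skin-homing and Th2-type cells, and its values moved the same way. It averaged 71.6 ± 21.6 at 0%, 45.0 ± 11.4 at 12.5% and 67.8 ± 7.35 at 25% on day 3 (SD, n = 3 each), against 166 ± 17.9 at 100% (n = 2). The log2 differences from 100% were -1.25, -1.89 and -1.28 (adjusted p = 0.000772, 6.34e-06 and 0.00109). On day 6 it was lower at 12.5% (-1.29, adjusted p = 0.000891) and at 25% (-1.25, adjusted p = 0.00043). At 50% it averaged 163 on day 3 and 147 on day 6, against 166 and 171 at 100%, and did not pass.

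CXCR4, the receptor of CXCL12 that holds T-cell precursors and leukaemic blasts in the marrow, stayed within a narrow range of 4087 to 6415 over all 25 libraries. It had 5634, 5607 and 5647 normalized counts at 0% on day 3, and 5819, 5689.8 and 5445 at 12.5%. It had 4907, 4893 and 4764 at 25% and 5417, 4936 and 5181 at 50%, against 4788 and 4998 at 100%. The 0% and 12.5% libraries lay above both at 100%, by log2 differences of 0.20 ± 0.07 (adjusted p = 0.0267) and 0.21 ± 0.07 (adjusted p = 0.0269). Both calls are lost when either 100% library is left out (without replicate 1, 0.17 and 0.18, adjusted p = 0.177 and 0.186), and under quantile normalization (0.13 and 0.09, adjusted p = 0.188 and 0.369). The call at 0% is also lost without any 1 of its own 3 libraries (adjusted p = 0.0503 to 0.056), and that at 12.5% without its replicate 1 or 2 (0.087 and 0.0604). On day 6 CXCR4 had 4571 and 4087 at 12.5%, 6415, 5248 and 5505 at 25%, and 4861, 5329 and 4866 at 50%, against 4774, 4979 and 4859.7 at 100%. It was higher at 25% (0.23 ± 0.06, adjusted p = 0.00887), a call lost without replicate 1 of 25% (0.14, adjusted p = 0.105). That call is also lost in a fit of the groups compared alone (adjusted p = 0.0717) and with the library number modulo 8 in the fit (0.0903). At 12.5% on day 6 both libraries lay below all of 100%, and the difference of -0.17 ± 0.07 did not pass (adjusted p = 0.08), though it passed under quantile normalization (-0.26, adjusted p = 0.00565) and without replicate 1 of 12.5% (-0.25, adjusted p = 0.0489).

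CCR7, which guides naive T cells into lymph nodes along CCL19 and CCL21, was low and variable. It had 23.7, 26.5 and 39.9 normalized counts at 0% on day 3, 28.5, 38.0 and 21.2 at 12.5%, and 23.6, 25.5 and 20.9 at 25%, against 25.7 and 62.4 at 100%. The 2 libraries at 100% were far apart, with every other library of these levels below the higher of them, and no difference passed. At 25% the log2 difference was -0.76 (95% interval -1.57 to 0.04, adjusted p = 0.201), and without replicate 1 of 100% it was -1.39 (adjusted p = 0.0432). On day 6 CCR7 had 75.3 and 80.5 at 12.5%, 27.2, 41.4 and 66.7 at 25%, and 57.1, 29.3 and 45.5 at 50%, against 48.4, 52.8 and 55.5 at 100%. The 2 libraries at 12.5% and replicate 3 of 25% were the 3 highest of all 25, and they are the 3 with the cytotoxic transcripts. The 12.5% difference of 0.57 (interval -0.24 to 1.37) did not pass (adjusted p = 0.358).

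CCR9, the receptor of CCL25 on thymocytes and gut-homing T cells, was low in every group. It had 19.7, 28.9 and 41.8 normalized counts at 0% on day 3, against 18.3 and 9.14 at 100%, and 42.4 and 27.2 at 12.5% on day 6, against 27.8, 5.31 and 15.9 at 100%. The libraries of the other groups ranged from 7.41 to 27.1. The 0% libraries lay above both at 100% on day 3, while the groups overlapped on day 6. Neither difference passed (log2 1.09, adjusted p = 0.148, and 1.27, adjusted p = 0.111), and their 95% intervals ran from -0.05 to 2.23 and from 0.13 to 2.41. Without replicate 1 of 100% on day 6 the second was 1.76 (adjusted p = 0.0312).

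**Figure D2:**
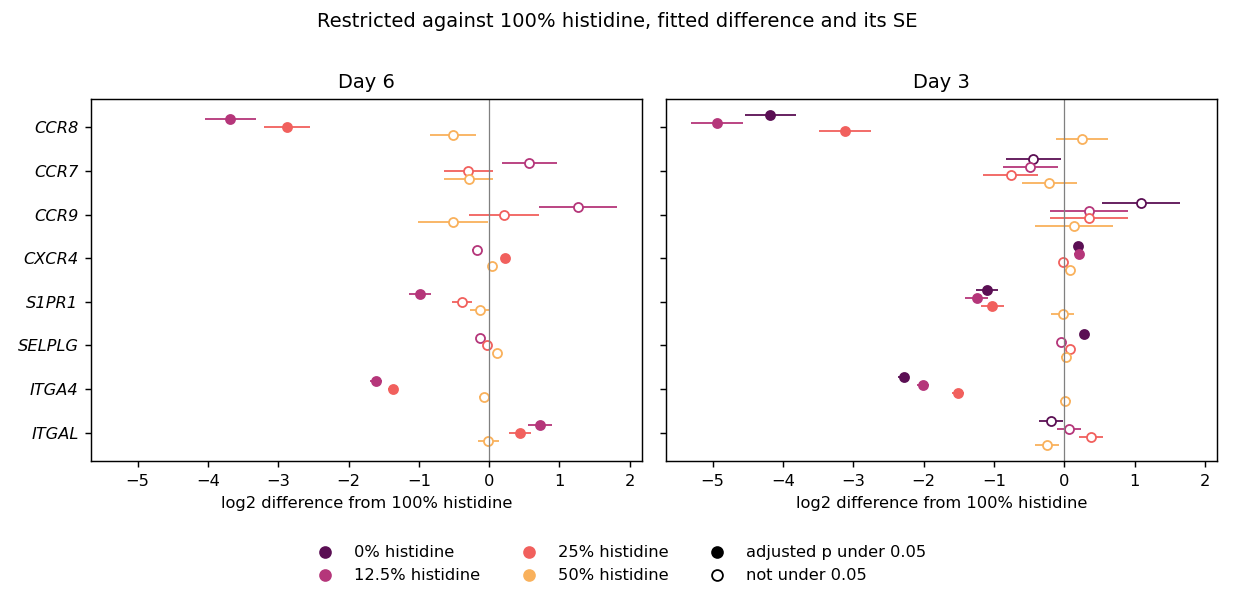
Fitted log2 difference of each restricted level from 100% histidine on the log2(value + 1) scale, with its SE as a bar, for day 6 (left) and day 3 (right); filled points passed at an adjusted p under 0.05 by limma. CCR8, ITGA4 and S1PR1 lie far left of 0 at 12.5% on both days, between -4.94 and -0.99, while the 50% points are open.

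S1PR1, the receptor by which T cells leave lymphoid organs, was at about 0.42 to 0.49 of its 100% level in the 3 most restricted groups of day 3. It had 235, 179.6 and 251 normalized counts at 0%, 217, 198 and 181 at 12.5%, and 229, 221 and 247 at 25%. It had 416, 529.7 and 451 at 50%, against 503 and 442 at 100%. The 9 libraries at 25% or less all lay below the 5 others of day 3. The log2 differences from 100% were -1.10 ± 0.16, -1.25 ± 0.16 and -1.02 ± 0.16 (adjusted p = 3.85e-06, 8.54e-07 and 2.48e-05). Between 25%, 12.5% and 0% it did not differ beyond the spread (12.5% against 25% -0.23, adjusted p = 0.392, and 0% against 12.5% 0.15, adjusted p = 0.532).

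On day 6 S1PR1 was lowest at 12.5%. It had 212 and 261 normalized counts at 12.5%, 318, 402 and 352 at 25%, and 409, 424 and 448 at 50%, against 404, 542 and 465 at 100%. The 12.5% libraries lay below all others of day 6, with a log2 difference of -0.99 ± 0.16 from 100% (adjusted p = 3.42e-05) and one of -0.59 ± 0.16 from 25% that did not pass (adjusted p = 0.0762). At 25% the libraries also lay below those of 100%, but the difference of -0.39 ± 0.14 did not pass (adjusted p = 0.0509). It passed with a pseudocount of 10 (adjusted p = 0.048), a filter of 50 in 2 libraries (0.0342), total-sum scaling (0.0334) and quantile normalization (0.0422), and when replicate 1 of 100% (-0.50, adjusted p = 0.0274) or else replicate 2 of 25% was left out (-0.48, adjusted p = 0.0322). Replicate 2 of 25%, the highest of its group, is the library with the heart-muscle transcripts, and their part was not tested. The difference between the days in the effect of 25% was 0.63 (95% interval 0.19 to 1.07) and did not pass (adjusted p = 0.0949).

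The 6 endothelial markers also summed lower under restriction, to between 911 and 1106 at 0% on day 3 against 1587 to 1689 at 100%, and to between 880.5 and 1021 at 12.5% on day 6 against 1438 to 1600.4 at 100%. Most of each sum was PECAM1, an adhesion protein that T cells make too, while KDR was at 0 in 19 of 25 libraries and CDH5 had a median of 14.3. Replicate 2 of 25% on day 6, the library with the heart-muscle transcripts, held the most CDH5 (105, against at most 24.0 in any other). It also held the most TEK (149, against at most 8.43). The part of the endothelial markers in the fall of S1PR1 was not tested.

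Other genes of the sphingosine-1-phosphate system moved in both directions. Of 16 tested genes, 5 were higher and 6 lower at 0% on day 3, and 3 higher and 3 lower at 12.5% on day 6, S1PR1 among the lower in both. The shares of all tested genes called in these comparisons were 31% and 21.9%. S1PR3, another receptor of the same lipid, had 4895, 5223 and 5278 normalized counts at 0% on day 3, against 985 and 879.97 at 100%, a 5.50-fold higher mean (log2 2.46 ± 0.09, adjusted p = 6.74e-17). On day 6 S1PR3 averaged 3120.1 ± 164 at 12.5% (n = 2) and 2012 ± 192 at 100% (n = 3, SD), a log2 difference of 0.64 (adjusted p = 8.75e-06). SPNS2, the transporter that releases the lipid, had 1833, 1794 and 1895 at 0% on day 3, against 639 and 641 at 100% (log2 1.52 ± 0.09, adjusted p = 9.75e-13). At 12.5% on day 6 SPHK2, a kinase that makes the lipid, was higher (0.58, adjusted p = 4.21e-05) and PLPP1, a lipid phosphatase, lower (-0.62, adjusted p = 0.000287). S1PR3 was higher and S1PR1 lower in both comparisons.

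KLF2, a transcription factor that in mouse T cells drives S1pr1, was also lower. It averaged 728 ± 123 at 0%, 678 ± 73.2 at 12.5% and 460.04 ± 60.05 at 25% on day 3 (SD, n = 3 each), against 1269 ± 142 at 100% (n = 2). The log2 differences from 100% were -0.81, -0.90 and -1.47 (adjusted p = 0.000298, 0.00011 and 2.53e-07). On day 6 KLF2 passed at 12.5% (-0.49, adjusted p = 0.0302) and not at 25% (-0.22, adjusted p = 0.324). CD69, which holds S1PR1 inside the cell, averaged 215 ± 24.1 at 0% on day 3 (n = 3), against 538 ± 25.4 at 100% (n = 2, SD; log2 -1.33 ± 0.17, adjusted p = 8.34e-07). At 25% on day 3 it averaged 576 ± 21.3 (n = 3) and did not pass (0.10, adjusted p = 0.786), and at 12.5% it was lower (-0.74, adjusted p = 0.00184). On day 6 CD69 did not pass at 12.5% (0.38, adjusted p = 0.128). FOXO1, which acts upstream of KLF2 in T cells, passed in no comparison with 100%.

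SELPLG encodes PSGL-1, the main selectin ligand of T cells, and ranged only from 4078 to 5496 normalized counts. It had 5496, 5351 and 4968 at 0% on day 3, 4146, 4179 and 4255 at 12.5%, and 4736, 4415 and 4554 at 25%, against 4078 and 4574 at 100%. The 0% libraries lay above all others of day 3, with a log2 difference of 0.29 ± 0.06 from 100% (adjusted p = 0.000615) and of 0.33 ± 0.06 from 12.5% (adjusted p = 5.72e-05). At 12.5% and 25% it did not pass (-0.04 and 0.08, adjusted p = 0.683 and 0.441). On day 6 SELPLG had 4330.1 and 4294 at 12.5%, against 4795, 4597 and 4777 at 100%. Both libraries at 12.5% lay below those of 100%, and the difference of -0.13 ± 0.06 did not pass (adjusted p = 0.144), though under quantile normalization it did (-0.22, adjusted p = 0.00545).

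PSGL-1 binds selectins only after its sugars are built, and transcripts of the enzymes for that changed as well. GCNT1, which starts the branched core of the sugar, had a mean of 112 ± 11.7 at 0% on day 3 (n = 3), against 327 ± 13.0 at 100% (n = 2, SD; log2 -1.55 ± 0.17, adjusted p = 6.29e-08). On day 6 GCNT1 averaged 149.9 ± 17.4 at 12.5% (n = 2) and 275 ± 47.6 at 100% (n = 3; log2 -0.86, adjusted p = 0.000457). ST3GAL6, a sialyltransferase, fell by 2.72 on the log2 scale at 0% on day 3 (adjusted p = 2.45e-05) and by 2.53 at 12.5% on day 6 (adjusted p = 0.000116). CHST2, a sulfotransferase, was higher in both (0.85 and 0.46), as was SPN, the sialomucin CD43 (0.43 and 0.23). FUT7, the fucosyltransferase that completes the selectin ligand, was below the filter and not tested, with at most 12.6 in any library. Of 19 tested genes of the list, 4 were higher and 8 lower at 0% on day 3, and 2 higher and 5 lower at 12.5% on day 6. The shares of all tested genes called there were 31% and 21.9%.

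ITGA4, the alpha chain of VLA-4 that binds VCAM-1 and fibronectin, fell in a graded way. It had 3400.0, 3378 and 3459 normalized counts at 0% on day 3, 3769, 4602 and 4104 at 12.5%, and 5897, 5688 and 5957 at 25%. It had 15607, 17671 and 17280.3 at 50%, against 16376 and 16912 at 100%. The 0%, 12.5% and 25% libraries formed 3 ranges with no overlap, all below the range of 50% and 100%. The means were 4.88-fold, 4.00-fold and 2.85-fold lower than at 100% (log2 -2.29, -2.01 and -1.51, each ± 0.08, adjusted p = 2.99e-17, 4.41e-16 and 2.60e-13). The steps also passed on their own, 25% against 50% by -1.53, 12.5% against 25% by -0.50 and 0% against 12.5% by -0.28 (adjusted p = 1.29e-14, 7.32e-05 and 0.00618). The last of them is lost without replicate 2 of 12.5% (-0.20, adjusted p = 0.0658) and with the library number modulo 8 in the fit (-0.28, adjusted p = 0.0811).

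On day 6 ITGA4 had 4789.5 and 5436 normalized counts at 12.5%, 6187, 5789 and 6150.0 at 25%, and 15653, 13969.8 and 14796 at 50%, against 14263, 17750.2 and 14851 at 100%. Both 12.5% libraries lay below all of 25%, and all 5 lay below all of 50% and 100%. The log2 differences from 100% were -1.61 ± 0.08 at 12.5% and -1.36 ± 0.07 at 25% (adjusted p = 7.58e-14 and 3.08e-13). At 12.5% against 25% the difference of -0.24 did not pass (adjusted p = 0.203). Replicate 3 of 25%, with its cytotoxic transcripts, lay between the other 2 of its group for ITGA4. The 50% libraries overlapped those of 100%, and the interval of their difference was -0.22 to 0.08 on day 6 and -0.15 to 0.18 on day 3.

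No fall was called for the beta chains that pair with ITGA4. ITGB1, its partner in VLA-4, averaged 4622 ± 303 at 0% on day 3 (n = 3), against 4082 ± 709 at 100% (n = 2, SD), and passed in no comparison (0.19 at 0%, 95% interval -0.01 to 0.39). ITGB7, its partner in the gut-homing integrin, had 347 and 312 at 12.5% on day 6 and 119, 121 and 321 at 25%, against 136, 147 and 163 at 100%. The 12.5% difference was 1.14 ± 0.28 (adjusted p = 0.00357), and the 3 highest libraries were again those with the cytotoxic transcripts. Their part in the ITGB7 result was not tested. On day 3 ITGB7 ranged from 96.5 to 152 and passed at no level.

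ITGAL, the alpha chain of LFA-1 that binds ICAM, went up on day 6. It had 888 and 1124 normalized counts at 12.5%, 724, 695 and 1114 at 25%, and 733, 650.3 and 459 at 50%, against 602, 634 and 584 at 100%. The 12.5% and 25% libraries all lay above those of 100%, by log2 differences of 0.72 ± 0.17 (adjusted p = 0.00321) and 0.44 ± 0.16 (adjusted p = 0.045). The 3 libraries with the cytotoxic transcripts held 888 to 1124, and the other 22 libraries held 400.0 to 740.1. Without replicate 3 of 25% the difference at 25% was 0.23 (adjusted p = 0.326), and the call was also lost without replicate 1, 2 or 3 of 100% (adjusted p = 0.101, 0.0711 and 0.126). It was lost too with no filter (adjusted p = 0.0567), total-sum scaling (0.0634), quantile normalization (0.0617) and no trend or robust moderation (0.0855). At 12.5% both libraries carried them, so no value without them can be given, and without replicate 2 the difference was 0.55 (adjusted p = 0.103). The 4 natural killer markers in the table summed to between 655 and 884 at 12.5% and between 377 and 760.1 at 25%. At 100% they summed to 136 to 337. Of these markers, 3 (KLRD1, NKG7 and GNLY) are also in the cytotoxic list. The remaining marker, NCAM1, was at 610 in replicate 2 of 25% and at most 110 in any other library. That replicate is the library with the heart-muscle transcripts, and it held NKG7 at 53.6 and GNLY at 43.8. What part the cytotoxic and natural killer transcripts have in the rise of ITGAL was not tested.

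**Figure D3:**
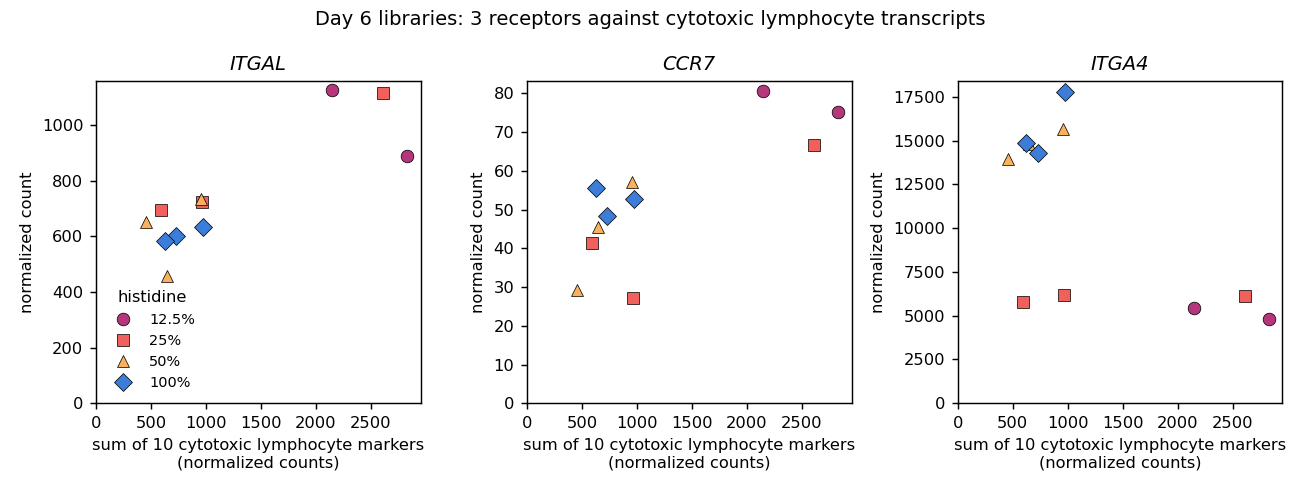
Normalized counts of ITGAL, CCR7 and ITGA4 (vertical axes, from 0) in the 11 libraries of day 6 against the sum of 10 cytotoxic lymphocyte markers. The 3 libraries with sums of 2148 to 2833 are the highest for ITGAL and CCR7, while for ITGA4 the 25% library among them (6150.0) lies with the other libraries of its level.

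On day 3 ITGAL had 479.9, 412 and 459 normalized counts at 0%, 536, 532 and 545 at 12.5%, 740.1, 597 and 679.9 at 25%, and 400.0, 423 and 479 at 50%, against 487 and 540.5 at 100%. The 25% libraries were the highest, with no overlap with the other levels. The cytotoxic marker sums of day 3 were at most 1068, and their part in the ITGAL values of day 3 was not tested. At 25% it differed from 50% by 0.63 ± 0.16 (adjusted p = 0.00358), a call lost with the library number modulo 8 in the fit (0.49, adjusted p = 0.187), and from 100% by 0.38 ± 0.17, which did not pass (adjusted p = 0.138). The 0% libraries lay below all of 12.5%, 25% and 100%, and the difference from 100% did not pass (-0.19 ± 0.17, adjusted p = 0.466). ITGB2, the beta chain of LFA-1, was lower at 12.5% and 25% on both days and did not pass at 0% on day 3 (-0.01, adjusted p = 0.928). On day 6 it averaged 2298 ± 50.6 at 12.5% (n = 2) and 2051 ± 197 at 25% (n = 3), against 2950.1 ± 132 at 100% (n = 3, SD; log2 -0.36 and -0.53, adjusted p = 0.000757 and 1.51e-06).

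**Figure D4:**
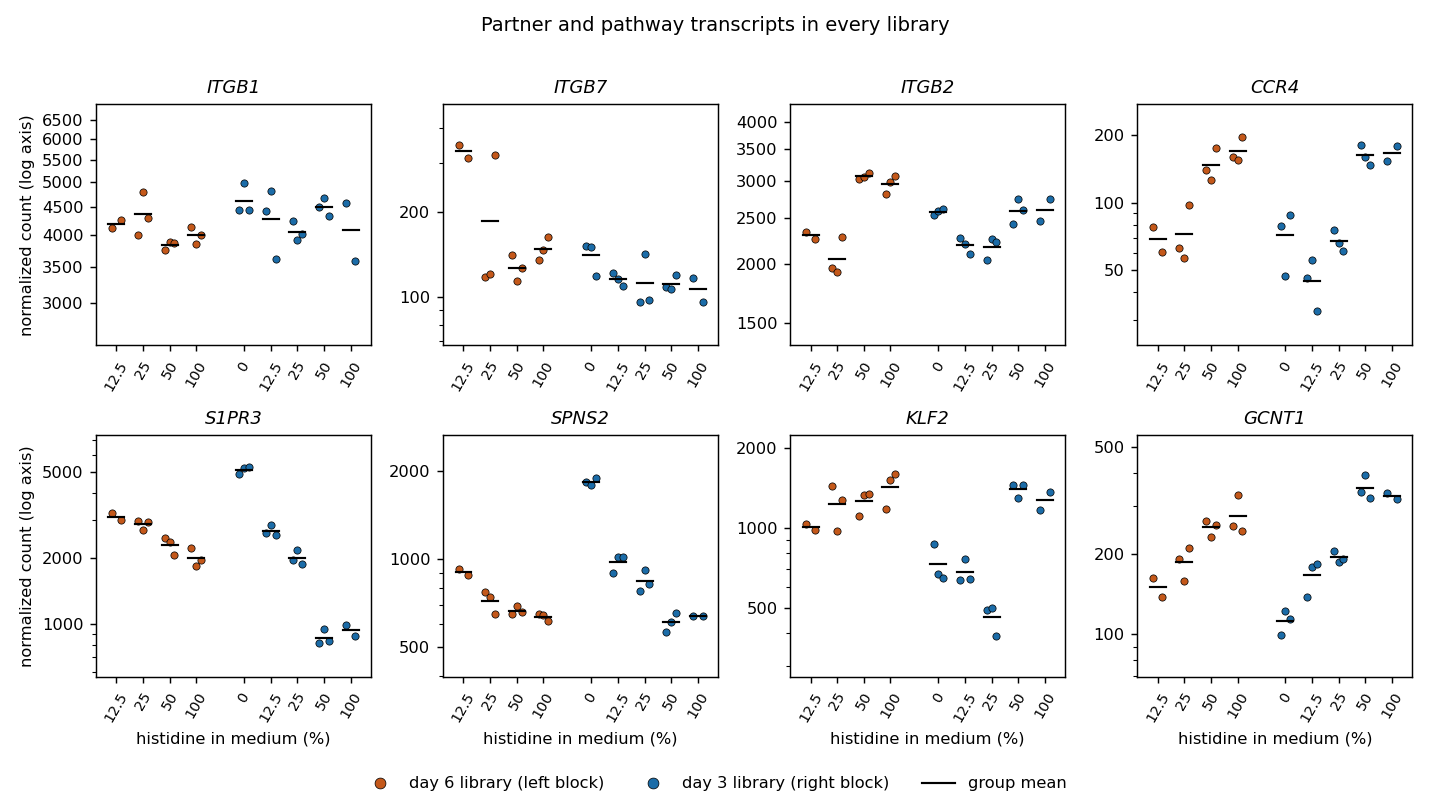
Normalized counts (log axis) of 8 genes that act with the receptors, in each of the 25 libraries (points) with group means (bars), against histidine from low to high, day 6 as the left block and day 3 as the right block. S1PR3 and SPNS2 are highest at 0% on day 3, while CCR4 and GCNT1 are lower at 25% and below than at 100%, and ITGB7 is high in 3 libraries of day 6.

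Neighbouring levels give the place of the steps. At 25% against 50%, 4 of the 8 genes passed on day 3 (1 higher, 3 lower), where 23.8% of all genes did, and 4 on day 6 (2 higher, 2 lower), where 20.9% did. CXCR4 and ITGAL were the higher 2 on day 6 (0.19 and 0.45), CCR8 and ITGA4 the lower. The CXCR4 call is lost without replicate 1 of 25% (0.10, adjusted p = 0.277) and without replicate 1 or 3 of 50% (both 0.16), and the ITGAL call without replicate 3 of 25% (0.24, adjusted p = 0.299) or of 50% (0.26, adjusted p = 0.298). At 12.5% against 25%, 3 passed on day 3 (8.22% of all genes), CXCR4 higher (0.22, adjusted p = 0.0268) and CCR8 and ITGA4 lower. That CXCR4 call is lost under total-sum and quantile scaling (0.13 and 0.10), without any 1 of the 25% libraries (adjusted p = 0.0581 to 0.095) and without replicate 1 or 2 of 12.5% (0.106 and 0.0731). On day 6 only CXCR4 passed (0.874% of all genes), lower by -0.40 ± 0.07 (adjusted p = 0.00223), and without replicate 2 of 12.5% it did not (-0.32, adjusted p = 0.161). At 0% against 12.5% SELPLG was higher and ITGA4 lower, where 21% of all genes were called.

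None of the 8 passed between the days. At 100% histidine limma called 0 of them on day 6 against day 3, where 8.66% of all genes were called, and SELPLG alone had an unadjusted p under 0.05. It had 4723 ± 110 on day 6 (n = 3) and 4326 ± 351 on day 3 (n = 2, SD; log2 0.13, adjusted p = 0.228), and passed under total-sum scaling (0.25), which placed the median of all genes at 0.13 in place of 0.02, and under quantile normalization (0.23). ITGA4 averaged 15621 ± 1867 on day 6 and 16644 ± 379 on day 3, and CCR8 173 ± 9.57 and 228 ± 25.7. CXCR4, S1PR1 and ITGAL differed by log2 -0.01, -0.01 and 0.24.

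The effects of restriction were compared between the days. At 25% and 50% limma called 0 of the 8 for a difference between days, where 4.72% and 0.00435% of all genes were called; among the 8, CXCR4 and S1PR1 had an unadjusted p under 0.05 at 25% and none at 50%. At 12.5%, where 3.64% of all genes were called, only CXCR4 passed, with an effect on day 6 of -0.17 and on day 3 of 0.21 and a difference of -0.38 ± 0.10 (adjusted p = 0.0268). ITGA4 fell less on day 6 (-1.61) than on day 3 (-2.01), a difference of 0.40 ± 0.12 that did not pass (adjusted p = 0.0553) and passed without replicate 2 of 100% on day 6 (0.49, adjusted p = 0.00939), without replicate 1 of 12.5% on day 6 (0.49, adjusted p = 0.0492) or without replicate 2 of 12.5% on day 3 (0.47, adjusted p = 0.0175). CCR8 had effects of -3.68 on day 6 and -4.94 on day 3 at 12.5%, and the difference of 1.26 (95% interval 0.19 to 2.32) did not pass (adjusted p = 0.217). For ITGAL the difference of 0.65 (95% interval 0.15 to 1.16) did not pass (adjusted p = 0.167). In a fit of the groups compared alone the ITGAL difference passed (adjusted p = 0.0366). The part of the cytotoxic transcripts in it was not tested.

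Wider lists place the 8 genes among their pathways. Of all tested genes, 31% were called at 0% on day 3 and 21.9% at 12.5% on day 6. These shares stand beside every list count that follows, and no list was tested as a set. Of 19 tested chemokine receptors, 4 among them members, 4 were higher and 3 lower at 0% on day 3, and 2 higher and 3 lower at 12.5% on day 6. The 7 called at 0% became 4 without replicate 2 of 0%, and 2 with the library number modulo 8 in the fit. On day 6 at 12.5%, CXCR3 was higher (2.09, adjusted p = 0.00303) and CX3CR1, the receptor of fractalkine, lower (-1.97, adjusted p = 0.00116). CX3CR1 was low on day 3 too, with 9.04, 4.85 and 7.39 normalized counts at 0%, against 50.1 and 43.4 at 100%. CXCR3, a receptor of effector T cells, had 83.4 and 86.9 at 12.5% and 93.7 in replicate 3 of 25%, and at most 36.1 in any other library, so its 3 highest libraries are again those with the cytotoxic transcripts. CXCL12, the ligand of CXCR4, did not pass against 100% at any level (0.55 at 12.5% on day 6, adjusted p = 0.428).

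Of 26 integrin subunits, 2 were higher and 4 lower at 0% on day 3, and 5 higher and 3 lower at 12.5% on day 6, where the 8 calls became 4 without either 12.5% library. ITGA6, a laminin receptor chain, had a mean of 6460.0 ± 533 at 0% on day 3 (n = 3), against 3528 ± 281 at 100% (n = 2, SD; log2 0.87 ± 0.08, adjusted p = 1.08e-09), opposite to ITGA4. ITGA10, a collagen receptor chain, was higher in both comparisons (1.31 and 1.07), while ITGB4 was lower at 0% on day 3 (-1.84) and ITGA5, a fibronectin receptor chain, at 12.5% on day 6 (-0.38). Of 11 integrin ligands, 1 was higher and 5 lower at 0% on day 3, and 0 higher and 4 lower at 12.5% on day 6, ICAM5 lower in both (-1.11 and -1.25). JAM3 was lower at 0% on day 3 (adjusted p = 1.95e-10) and ICAM4 at 12.5% on day 6 (-1.03). ICAM3, a ligand of LFA-1 on leukocytes, was higher at 0% on day 3 (0.84, adjusted p = 3.51e-10).

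Genes that control integrin activation, up or down, moved in both directions. Of 28 genes, 7 were higher and 11 lower at 0% on day 3, and 7 higher and 8 lower at 12.5% on day 6. The kindlin FERMT3, which activates leukocyte integrins, was higher at 0% on day 3 (0.70, adjusted p = 1.75e-09). Talin (TLN1) and filamin (FLNA), which bind the tails of beta chains, were higher at 12.5% on day 6 (0.68 and 1.17, adjusted p = 1.67e-08 and 3.06e-11). SIPA1, RASA3 and RAP1GAP switch off the small GTPase Rap1. SIPA1 and RASA3 were lower at 0% on day 3 (-1.75 and -1.48), and RAP1GAP and RASA3 at 12.5% on day 6 (-1.51 and -1.07). RASSF5, the Rap1 effector RAPL, was higher at 0% on day 3 (0.42, adjusted p = 4.04e-06) and at 12.5% on day 6 (0.43, adjusted p = 6.69e-06).

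Of 37 genes of chemokine receptor signalling, 10 were higher and 8 lower at 0% on day 3, and 13 higher and 4 lower at 12.5% on day 6, where the 17 calls became 11 without replicate 2 of 12.5%. RGS16, which ends G-protein signals, averaged 2370.3 ± 91.1 at 0% on day 3 (n = 3), against 487 ± 2.21 at 100% (n = 2, SD; log2 2.28 ± 0.11, adjusted p = 8.72e-15). On day 6 RGS16 averaged 1853 ± 59.3 at 12.5% (n = 2) and 612 ± 49.3 at 100% (n = 3; log2 1.60, adjusted p = 3.09e-11). The arrestin ARRB1, which takes receptors out of action, was lower in both (-1.56 and -1.25). RGS2 was lower and RGS14 higher at 0% on day 3 (-1.58 and 1.42). RGS1 was higher at 12.5% on day 6 (2.10, adjusted p = 0.0107). It had 72.3 and 59.6 there, 55.4 in replicate 3 of 25% and at most 22.6 in any other library. Its 3 highest libraries are again those with the cytotoxic transcripts, whose part was not tested. DOCK2, which turns chemokine signals into movement, was higher at 12.5% on day 3 and day 6 (0.26 and 0.30). GRK2, a kinase of activated receptors, was higher at 12.5% on day 3 (0.25). At 0% on day 3 neither passed (-0.13 for DOCK2 and -0.12 for GRK2, adjusted p = 0.188 and 0.192).

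**Figure D5:**
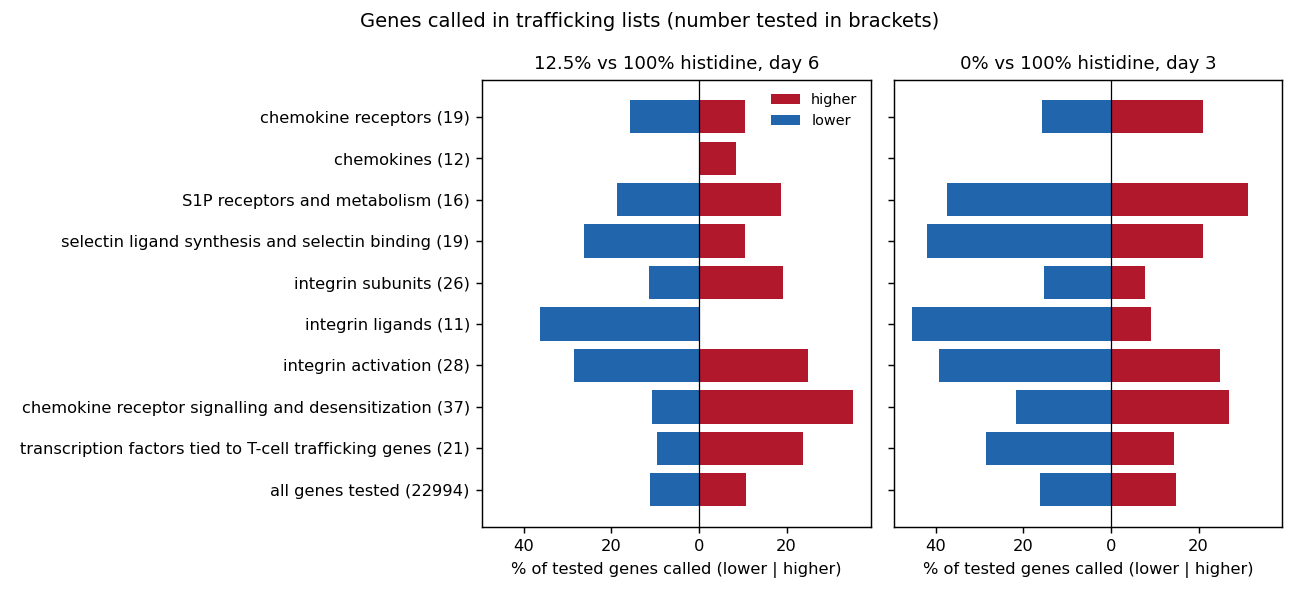
Share of the tested genes of each list called higher (right) and lower (left), for 12.5% against 100% histidine on day 6 (left panel) and 0% against 100% on day 3 (right panel), with the number tested in brackets and all 22994 genes in the bottom row. All genes were called in 21.9% and 31% of cases, and the lists are shown beside that background without a test.

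Of 21 transcription factors tied to these genes, 3 were higher and 6 lower at 0% on day 3, and 5 higher and 2 lower at 12.5% on day 6, where the 7 calls became 3 without replicate 1 of 12.5% and 2 without replicate 2. RUNX3, a factor of killer T cells, was lower at 0% on day 3 (-0.95, adjusted p = 2.29e-06) and higher at 12.5% on day 6 (0.44, adjusted p = 0.0149), where both libraries carried cytotoxic transcripts. TCF7 was lower at 12.5% on day 6 (-0.30, adjusted p = 9.49e-05). BACH2, which restrains effector genes, was higher in both (0.35 and 0.48).

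The genes nearest to each receptor in pattern were those with the smallest root mean square difference of centred log2 group means over the 9 groups, among 12381 or 12382 candidates. For CCR8 they were GRIK4 (0.44), SCARB1 (0.57) and CEBPE (0.57). For ITGA4 they were SLC30A3 (0.15), ESYT3 (0.18) and STARD4 (0.20), and for S1PR1 they were PDP2 (0.10), GIMAP2 (0.13) and NFIA (0.13). For CXCR4 they were KANSL2, THAP3 and AKT1 (0.05 to 0.07), and for SELPLG they were CYTH3, SOCS6 and PROB1 (0.04 to 0.05). For CCR7 they were APOL3, LSP1 and SPOCK2 (0.13 to 0.20), for CCR9 CRIM1, IDS and CLEC2B (0.16 to 0.23), and for ITGAL TNIK, PDE4DIPP2 and NCOA3 (0.13 to 0.15). These distances rest on group means of the same libraries and are given without a test.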

How the data were processed

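Total RNA of 25 Jurkat libraries was measured by strand-specific Illumina sequencing, per the labels' protocols. FastQC 0.11.9, kallisto 0.50.1, DESeq2 1.44.0 and the build GRCh38 are named in the submitters' processing notes. The sources used here do not say which step each did, which annotation was used or whether strand was. The deposited signal is a normalized count per gene for every library. Low values were whole multiples of 1 read in 55.3% to 75.3% of cases at a tolerance of 0.05, so reads were not recovered, no count test was run, and depth is unknown.

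Values were put on a log2(value + 1) scale, which understates changes of low genes. The 22994 genes that reached 10 in 2 or more libraries were fitted with limma 3.58.1 (R 4.3.3, statmod 1.5.0), a mean per group over 9 groups, trend and robust moderation, and called at an adjusted p (Benjamini-Hochberg over all tested genes) under 0.05. The script was tested on simulated data. Comparisons were each level with 100%, neighbouring levels, day 6 with day 3 at 100%, and the differences between days.

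The rule for named genes took the 8 members, 16 partners, and from each of 9 lists the 2 largest rises and 2 largest falls among called genes with a mean of at least 50 at 0% (day 3) or 12.5% (day 6) or in the 100% group; 5 list names matched no row. GENCODE 29 gave positions. The 10 cytotoxic markers were picked after their values were seen, as was RUNX3 on day 6. The members and lists were chosen with earlier results of these data known. A few genes that these rules name are not reported here.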

Additional observations from a re-analysis of the deposited data

Results flagged for a closer look

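The effect of 12.5% against 100% histidine on CXCR4 differed between the days by a test of the difference itself: log2 -0.17 on day 6 (n = 2 against 3 libraries) and 0.21 on day 3 (n = 3 against 2), a difference of -0.38 ± 0.10 (SE; limma, adjusted p = 0.0268). Both 12.5% libraries of day 6 were below all 3 at 100%, and all 3 of day 3 were above both at 100%. The call is lost without replicate 1 of 100% on day 3 (-0.35, adjusted p = 0.129), without replicate 1 of 12.5% on day 3 (-0.36, adjusted p = 0.0667), without replicate 2 of 100% on day 6 (-0.36, adjusted p = 0.0593), and without replicate 2 of 12.5% on day 6 (-0.30, adjusted p = 0.215). Both 12.5% libraries of day 6 carried cytotoxic lymphocyte transcripts, and their part in this difference was not tested. No group had enough libraries for a test of single outlying values.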

How the results depend on the processing

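The alternatives were a pseudocount of 0.5 or 10, no filter or a filter of 50, total-sum and quantile scaling, a fit of the groups compared alone, the replicate block, the library number modulo 8 as a term, no trend or robust moderation, and leaving out each library; leaving out the 3 libraries that stand apart (replicate 2 of 25% and replicates 3 of 50% and 100% on day 6) was added after seeing the data and ended 1 call, ITGAL at 25% against 50% on day 6 (0.38, adjusted p = 0.126). Of 2216 values of single genes under them, 2123 stayed on their side of the threshold, 67 lost the call, 26 gained one and no called value reversed; 105 values that were uncalled both ways, counted among the 2123, changed sign. CCR8, ITGA4 and S1PR1 against 100% kept every call they had. Of 279 counts, 254 stayed within 1.5 times. The count for the difference between days at 12.5% (1) became 2 with the filter of 50, total-sum scaling, the groups compared alone and the replicate block, 0 with the library number and with no trend or robust moderation, and 0 to 2 leaving out a library. With the groups compared alone and with the library number, the counts were 2 for 25% against 100% on day 6, 2 for 25% against 50% on day 6, and 0 for 12.5% against 25% on day 6; for 25% against 50% it was also 2 with no trend or robust moderation. The library number gave 1 for 12.5% against 25% and 1 for 0% against 12.5% on day 3. Total-sum and quantile scaling each gave 1 for day 6 against day 3 at 100%. Leaving out a library gave 2 to 5 for 25% against 50% and 0 to 1 for 12.5% against 25% on day 6, and 1 to 3 for 0% against 12.5% on day 3. The cause of these changes was not tested. Replicate numbers are not shown to pair the libraries: deviations from group means correlated between -0.15 and 0.13 in 92 same-numbered pairs, over 0.1 in 6 of them. Under the replicate block the ITGAL calls of 25% on day 6 were lost against 100% (adjusted p = 0.0585) and 50% (0.0514), and the ITGA4 difference between days at 12.5% passed (0.42, adjusted p = 0.0396). Counts over all genes moved by over 1.5 times in most comparisons, for example 1889 (range 238 to 2137) for 12.5% against 25% on day 3, 1991 (588 to 2338) for day 6 against day 3 at 100%, 201 (12 to 322) for 12.5% against 25% on day 6, 7123 (4725 to 7235) for 0% on day 3 and 5036 (3175 to 5449) for 12.5% on day 6. Total-sum scaling moved the share of higher calls to 63.3% in place of 50.2% for 25% against 100% on day 3, 64.0% in place of 47.7% for 25% against 50%, 35.4% in place of 65.8% for 12.5% against 25%, and 70.0% in place of 33.8% for day 6 against day 3 at 100%. For the difference between days at 25% it was 32.9% in place of 57.5%. Quantile scaling gave 50.0%, 51.7% and 42.8% in the last 3. Low genes such as CCR7 and CCR9, at 5.31 to 80.5 normalized counts, carry wide intervals, and the depth is unknown. CCR8 was as low under restriction, at 3.41 to 36.5 in the libraries of 25% or less. Its log2 difference from 100% at 12.5% on day 3 (-4.94) lay between -5.24 and -3.82 under the alternatives.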

Other observations

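CCL5, GNLY, PRF1 and GZMH belong to the 10 cytotoxic markers that set the 3 libraries of day 6 apart. High values of these markers there follow from that choice and are no separate result. CCL4 is not on that list. CCL5, a chemokine of effector T cells, had 429 and 333 normalized counts at 12.5% and 82.2, 97.4 and 410 at 25% on day 6, against 155, 132 and 90.4 at 100%. GNLY, a granule protein of killer cells, had 574 and 370.2 at 12.5% and 210, 43.8 and 417 at 25%, against 11.1, 176 and 7.20 at 100%. PRF1, perforin, had 282 and 227 at 12.5% and 127, 74.2 and 235 at 25%, against 114, 160 and 110 at 100%. GZMH did not follow, with 28.5 and 26.0 at 12.5% and 20.4, 11.7 and 30.3 at 25%, against 18.3, 25.0 and 37.3 at 100%. CCL4, which has near-identical copies in the genome, averaged 92.9 ± 10.8 at 12.5% (n = 2) and 5.48 ± 6.22 at 100% (n = 3, SD), where 1 library was at 0 (log2 4.51, limma, adjusted p = 0.0276). It was the 1 chemokine of 12 called there, and that count was 0 without either 12.5% library or without replicate 3 of 100%. Of all tested genes, 21.9% were called in that comparison. The label gives Jurkat for all 3 libraries with cytotoxic transcripts, and the source of these transcripts was not tested.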
